A study of Mus musculus with 12 samples.

Results

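N6-methyladenosine (m6A) peaks that the authors annotated to a 5' untranslated region (5' UTR), but that lay away from the start of the gene, are described here. A peak belonged to this class when the edge nearer the gene's 5' end was more than 100 bases from that end. The knockout list held 2007 such peaks among 4010 5' UTR peaks and 32277 peaks in all. The wild-type list held 1882 among 3974 5' UTR peaks and 33078 peaks in all, so that the class counted 3889 of 65355 peaks over both lists. No measured value entered this choice, only position and annotation. Distances are genomic and include introns.

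The peaks came from m6A immunoprecipitation and sequencing of polyadenylated RNA from whole testes of mice at postnatal day 18. The males were Alkbh5-/- (KO) or wild type (WT), with 3 IP and 3 input libraries of each genotype, 12 libraries in all (KO IP, KO input, WT IP, WT input). The deleted part of Alkbh5 and the strain are not given in the labels, nor whether the replicates were single animals. The data analysed here are 1 peak list per genotype, each giving a fold enrichment of IP over input and a false discovery rate (FDR) for every peak, without values per library. Depth per library is therefore unknown, no replicate error can be given, and no test between genotypes was possible. Intervals in parentheses are 95% intervals for counting error only. Peaks are treated there as independent, and the variation between mice is not included.

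m6A is written onto nascent RNA by a methyltransferase complex built around Mettl3 and Mettl14, mostly at adenosines within GGAC and related contexts, and Alkbh5 removes it. In most transcripts it is densest around the stop codon and in the 3' UTR. Antibodies against m6A also bind the doubly methylated adenosine (m6Am) next to the cap, so that signal at a transcription start can come from cap or body. Inside 5' UTRs, m6A is known for its links with translation that does not depend on the cap, including that of heat shock transcripts. Many genes have several promoters, and a peak far from the outermost start may then lie close to the start of a shorter transcript.

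The following sequences show the GGAC core, the context in which the modification is mostly written, where it could be read inside such peaks. They were taken from RefSeq start windows (GRCm38.p6, 250 bases before and 50 after each start), which cover only a small part of the peaks. Tomm6, Ccnt1 and Tmem214 are the 3 genes of highest KO fold with GGACT inside both peaks of a KO and WT pair at an FDR of 1e-05 or below in both lists, chosen after their values were seen. Fam173a, Gpbp1, Pde4b and Tet3 are the genes named by rule whose shared peak had such a site. Each line runs 5' to 3' on the strand of the gene, with GGAC or GGACT in capitals.
Tomm6: gggtggggtggggGGACTtatgtagcgaga
Ccnt1: cgttcttagccgcGGACTggctgtggattc
Tmem214: ccgtggcgcgaacGGACTacgaatcccagg
Fam173a: aagaatgaatgtcGGACTggcctcggaggc
Pde4b: cctccgggcaccaGGACTgttcctaactga
Tet3: ctagaactgcaggGGACgtcttgtgtatgt
Gpbp1: ctcctcagggaacGGACgggaattccccct

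Of 670 KO and WT pairs with spans of at most 2000 bases, 129 shared at least 30 bases with a window of the same gene, and 25 of these held GGACT in the shared part (1 chromosome was not searched). Positions are given in GRCm38. The Tomm6 site (chr17:47688449-47688478, minus strand) lay in a peak with fold 17.3 in the KO list and 11.6 in the WT list. Tomm6 belongs to the import pore of the mitochondrial outer membrane, and its peak edge lay before the listed gene start, at a signed distance of -338 bases in both lists. The Ccnt1 site (chr15:98567843-98567872, minus strand) lay in a peak of fold 9.25 in KO and 7.78 in WT, with its edge 2647 and 2677 bases into the gene of this cyclin, a subunit of the transcription elongation factor P-TEFb. The Tmem214 site (chr5:30869552-30869581, plus strand) had peak folds of 7.67 in KO and 6.63 in WT. In these 3 genes the folds of the lists differed by less than 2 times. The other sites are chr17:25792401-25792430 (Fam173a, minus), chr4:102589802-102589831 (Pde4b, plus), chr6:83441840-83441869 (Tet3, minus) and chr13:111490328-111490357 (Gpbp1, minus), and their peaks follow with their genes. The Tet3 and Gpbp1 sites lay inside peaks that span many kilobases with introns, so the site need not be in an exon. The Tomm6 and Gpbp1 sites lay upstream of the listed genes. That of Gpbp1 was in a KO peak that began 59597 bases before the gene's 5' end. In all 7 the motif lay before the RefSeq start of its window. Such a match is a description and not a called site, since GGAC occurs in 65.6% of all 32851 start windows on the transcribed strand and in 66.1% on the other strand. GGACT occurs in 26.1% and 26.0%.

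Peaks away from the start made up 50.0% (48.5 to 51.6) of 5' UTR peaks in the KO list and 47.4% (45.8 to 48.9) in the WT list, a difference of 2.69 percentage points (0.499 to 4.88). Of all peaks they were 6.22% in KO and 5.69% in WT. The 5' UTR peaks at the start were 2003 in KO and 2092 in WT, and 67.9% and 69.5% of these had their edge exactly on the gene's 5' end. A peak away from the start was present in 1715 genes of the KO list, 10.9% of the genes with a KO peak. In the WT list it was present in 1607 genes, 9.82% of the genes with a WT peak. Of the 2260 genes with such a peak in either list, 1062 had it in both lists, 653 in the KO list alone (28.9%) and 545 in the WT list alone (24.1%). Of the 17805 genes with any peak in either list, 80.2% had a peak in both lists. For 8.08% it was in the KO list alone and for 11.7% in the WT list alone. Of the 2750 genes with a 5' UTR peak at the start in either list, 25.3% had it in the KO list alone and 28.2% in the WT list alone. Genes counted as having the peak in 1 list can still have a peak at that locus in the other list, since 144 pairs lay away from the start in KO and at the start in WT, and 123 lay at the start in KO and away from it in WT. A share of 14.6% of the genes with a peak away from the start in KO and 14.9% in WT had 2 or more. Clone-type names, such as those of predicted genes and RIKEN clones, accounted for 3.44% of the peaks in KO and 3.72% in WT.

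Most of these peaks were not deep inside the gene, but their distances covered 4 orders of magnitude. The median distance was 977 bases (838 to 1123) in the KO list and 928 bases (824 to 1055) in the WT list, with quartiles of 299 and 7873 bases in KO and of 299 and 7036 bases in WT. Within 500 bases of the gene's 5' end lay 255 KO peaks at 200 bases or less and 503 beyond 200. The WT counts were 255 and 448. At the far end, 87 KO and 81 WT peaks lay beyond 100000 bases. In 23 KO and 25 WT cases the edge lay outside the listed gene, upstream of its 5' end by more than 100 bases. Peaks just beyond the limit, at over 100 to 130 bases, had median folds of 4.26 in KO (97 peaks) and 4.88 in WT (110 peaks). Those just within it, at over 70 to 100 bases, had 4.58 in KO (140 peaks) and 4.63 in WT (132 peaks).

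**Figure D1:**
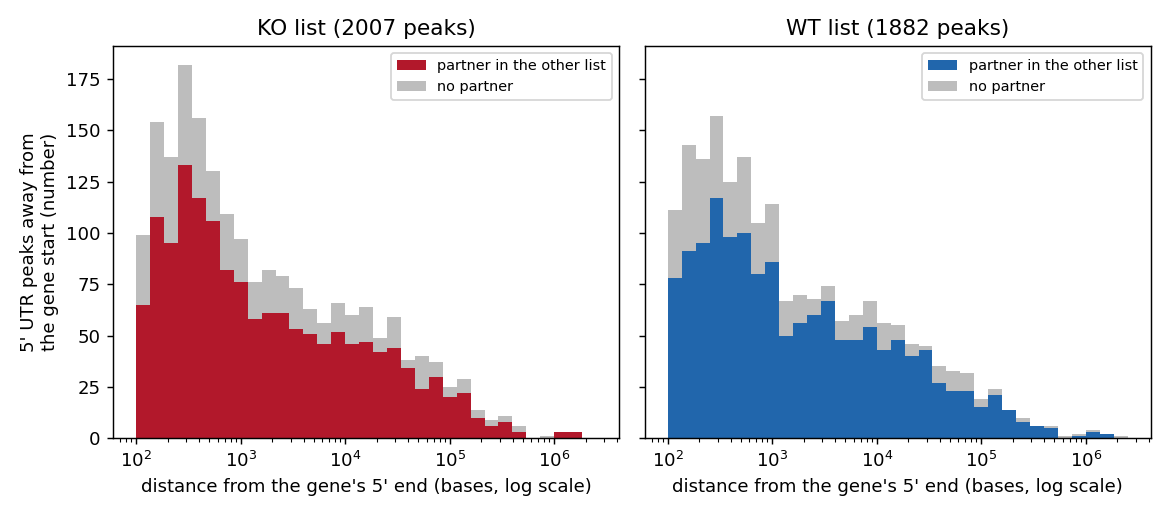
Number of 5' UTR peaks away from the gene start (vertical axis) by distance from the gene's 5' end in bases, on a log scale, for the KO list (left, red) and the WT list (right, blue), with peaks lacking a partner in the other list stacked in grey. Both lists peak below 1000 bases and have a long tail, with medians of 977 bases in KO and 928 bases in WT.

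The far tail held named genes with peaks beyond 100000 bases. The peak farthest into its gene among shared peaks at an FDR of 1e-05 or below lay in Pde4d, a cyclic AMP phosphodiesterase (chromosome 13, plus strand, 109903319 to 109903559 in KO), 1453371 bases from the gene's 5' end and 49902 bases before its 3' end. Its fold was 4.15 in KO and 6.48 in WT. Auts2, which takes part in a Polycomb complex, had such a peak at 1004988 bases in KO and 1005228 in WT (chromosome 5, minus strand, 131537636 to 131538356 in KO), with folds of 7.09 and 7.87. In Pde4b, another phosphodiesterase of this family, the KO peak that holds the GGACT printed above lay 502244 bases into the gene, and the fold was 6.47 in KO and 4.01 in WT (102589787 to 102589907 in KO). Rtl4, a gene derived from a retrotransposon on chromosome X, had its peak at 430496 bases in KO, with folds of 4.28 and 3.70 in KO and WT. None of the 4 pairs differed by 2 times between the lists.

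The distances were set against the starts of all RefSeq transcripts, since the authors' gene span gives only the outermost start. Outside chromosome 18, 81.8% of the KO and 81.1% of the WT peaks away from the start could be matched to a RefSeq gene by symbol. In 17.0% (15.3 to 19.0) of the matched KO peaks and 18.5% (16.6 to 20.6) of the matched WT peaks the edge lay within 100 bases of some RefSeq start of the same gene. For 5' UTR peaks at the gene start these shares were 77.2% in KO and 77.8% in WT. The median distance to the nearest RefSeq start was 366 bases in KO and 358 in WT, against 29 and 28 bases for peaks at the start. A RefSeq start lay inside the span of 19.2% of these peaks in KO and 19.8% in WT, against 57.9% and 60.3% at the start. These contrasts follow in large part from the rule, which sorts the peaks by distance from the gene's 5' end. Genes with several RefSeq starts were more frequent among them, at 536 of 1585 matched peaks in KO (33.8%) and 499 of 1472 in WT (33.9%), against 320 of 1586 (20.2%) and 344 of 1664 (20.7%) at the start.

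Where a RefSeq start lay within 100 bases of the peak edge, the bases after that start could be read. The first base was A at 27.5% of 269 such starts in KO and at 29.7% of 269 in WT. For 5' UTR peaks at the gene start it was A at 31.4% of 1205 starts in KO and 30.5% of 1274 in WT, and over all 32851 RefSeq starts at 34.4%. GGAC occurred in the first 50 bases after 22.3% of these starts in KO and 24.2% in WT, against 21.8% in KO and 22.1% in WT for 5' UTR peaks at the start and 18.9% of all starts. On the other strand, read as GTCC, it occurred after 19.7% and 17.8%, against 18.3% and 17.3% for peaks at the start and 17.4% of all starts. These shares describe a small subset, and the rest of each peak could not be read without a genome.

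The peaks away from the start were long in genomic span. Their median span, introns included, was 491 bases (449 to 539) in KO and 449 bases (408 to 485) in WT, against 298 and 299 bases for 5' UTR peaks at the start and 389 and 360 bases for all peaks. Spans of over 2000 bases made up 26.9% of them in KO and 25.9% in WT. At the start these were 18.5% and 19.2%, a difference of 8.33 points (5.75 to 10.9) in KO and 6.71 points (4.11 to 9.32) in WT. Spans of over 10000 bases made up 11.9% in KO and 11.8% in WT, against 7.89% and 8.56% at the start and 3.89% and 3.63% of all peaks. The longest ran over 439266 bases in KO and 439326 in WT. Of spans up to 500 bases, 86.6% in KO and 86.1% in WT were within 1 base of a multiple of 30, so that edges moved in steps of about that size. The lists carry no exon blocks, and which exons of a long span held the signal cannot be told apart.

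**Figure D2:**
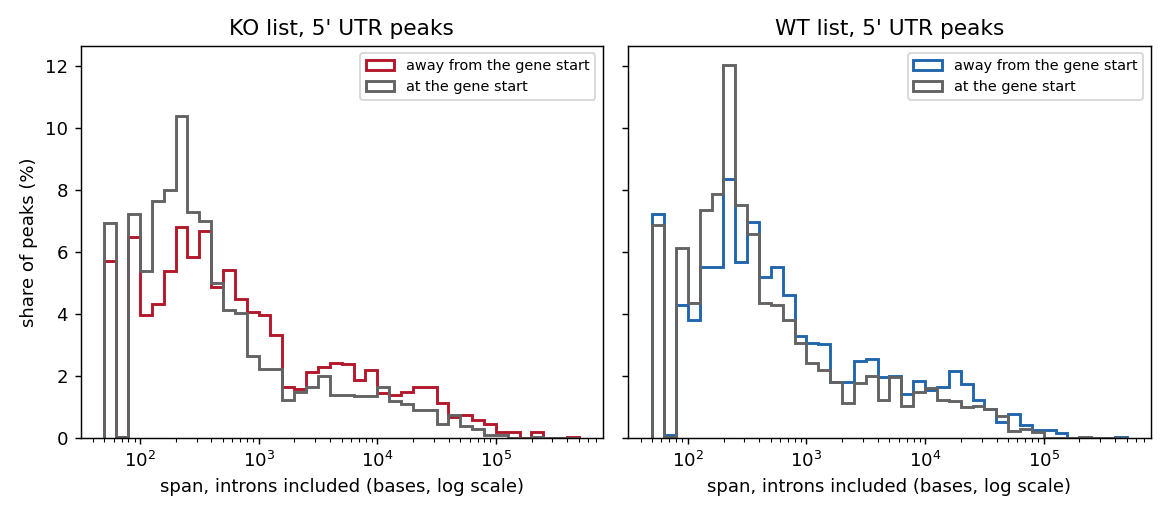
Share of 5' UTR peaks (vertical axis, %) by genomic span in bases on a log scale, introns included, for the KO list (left) and the WT list (right), with peaks away from the gene start in colour and peaks at the gene start in grey. The coloured lines reach further right in both lists, with 26.9% of KO and 25.9% of WT peaks over 2000 bases, against 18.5% and 19.2% at the start.

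In strength these peaks stood close to other peaks. The median fold was 5.91 (5.59 to 6.32) in KO and 5.55 (5.25 to 6.02) in WT, against 6.32 and 6.02 both for 5' UTR peaks at the start and for all peaks. The highest fold was 854 in KO and 443 in WT. An FDR of 1e-05 or below was listed for 45.9% of them in KO and 44.5% in WT, against 44.4% and 46.1% at the start and 52.2% and 51.3% of all peaks. An FDR above 0.05 was listed for 18.8% in KO and 16.9% in WT, against 17.9% and 16.5% at the start and 15.1% and 14.7% of all peaks. Folds repeated often among peaks that had no partner in the other list. The 6 commonest values made up 36.1% of these in KO, led by 6.32 (56 peaks) and 7.22 (32 peaks), and 33.3% in WT, led by 6.48 (52 peaks) and 7.41 (24 peaks). The input counts behind these repeated folds are unknown.

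About 1 in 4 of these peaks had no partner, meaning no peak of the other list that shared at least 1 base on the same strand. In the KO list they were 501, or 25.0% (23.1 to 26.9), beside 19.3% of all KO peaks. In the WT list they were 432, or 23.0% (21.1 to 24.9), beside 21.6% of all WT peaks. The KO share was above the WT share by 2.01 points (-0.679 to 4.68), an interval that holds 0. Against 5' UTR peaks at the start, the share differed by -0.449 points (-3.14 to 2.24) in the KO list, where these stood at 25.4%. In the WT list it differed by -3.81 points (-6.49 to -1.12), with 26.8% at the start.

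The peaks without a partner were mostly weak and short. Their median fold was 4.29 in KO and 4.20 in WT, against 6.32 and 6.02 for the peaks with a partner, and their median span 210 bases in KO and 181 in WT, against 642 and 551. At the start, peaks without a partner had median folds of 5.41 in KO and 4.63 in WT and median spans of 151 and 180 bases. Of the peaks away from the start with an FDR above 0.05, 61.5% in KO and 56.0% in WT had no partner. At the start these were 63.0% and 60.1%. Between 1e-05 and 1e-20 the shares were 9.20% and 5.22%, against 6.04% and 10.1% at the start. At 1e-20 or below they were 0.201% and 1.84%, against 0.732% and 4.77% at the start. At an FDR of 1e-05 or below, 40 of 922 KO peaks (4.34%, 3.20 to 5.85) and 29 of 837 WT peaks (3.46%, 2.42 to 4.93) had none, beside 3.57% of all KO and 4.50% of all WT peaks at that level. The 5' UTR peaks at the start gave 3.60% in KO and 7.68% in WT. The difference away from minus at the start was 0.743 points (-1.09 to 2.58) in KO and -4.21 points (-6.34 to -2.10) in WT. Whether these 2 differences differ between the genotypes was not tested. Transcript levels were not analysed here, and in whole testes fewer cells of a type and less RNA per cell cannot be told apart.

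**Figure D3:**
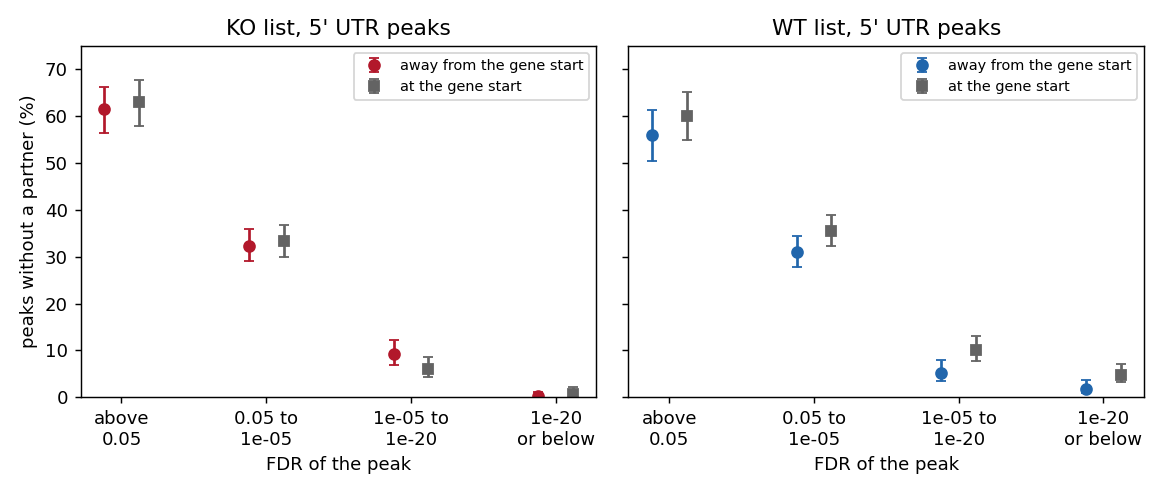
Share of 5' UTR peaks without a partner in the other list (vertical axis, %) by FDR class of the peak, for the KO list (left) and the WT list (right), with peaks away from the gene start as coloured circles and peaks at the start as grey squares. Bars are Wilson 95% intervals for counting error only, and the circles fall to 0.201% in KO and 1.84% in WT in the lowest FDR class.

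The share without a partner was highest for peaks close to the limit of 100 bases. At over 100 to 200 bases it was 31.4% (80 of 255) in KO and 33.7% (86 of 255) in WT. At over 1000 to 5000 bases it was 23.4% in KO and 16.8% in WT, and beyond 100000 bases 26.4% (23 of 87) and 14.8% (12 of 81). Peaks at over 100 to 200 bases were also short, with median spans of 327 bases in KO and 358 in WT. Median spans were 630 and 569 bases at over 1000 to 5000, but 361 and 360 beyond 100000. Whether distance mattered apart from span and FDR was not tested. Partnerless peaks often had a peak of the other list nearby. It lay within 100 bases of 11.2% of the partnerless KO peaks and 13.4% of the partnerless WT peaks, and within 1000 bases of 33.9% and 38.7%. Only 14.2% of the partnerless peaks in KO and 14.6% in WT lay in genes with no peak at all in the other list. At the start these shares were 20.4% and 24.5%.

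Where a partner existed, it was most often a peak of the same class. A 5' UTR peak away from the start was the partner of 56.7% of the KO and 60.8% of the WT peaks, and a 5' UTR peak at the start that of 8.92% and 8.08%. A coding class was given to the partner in 6.13% and 4.84%, and a 3' UTR class in 2.59% and 2.66%. The class of a locus therefore changed between the lists in a minority of cases, among them those where a peak was split in one list and merged in the other. On the opposite strand of the same list, 8.42% of these peaks in KO and 9.51% in WT overlapped another peak, against 13.8% and 14.0% at the start and 8.83% and 9.22% of all peaks. Of the genes named further on, Capns1, Foxq1, Hspa1l, Lipe, Tet3, Tssk6 and Jun (the WT peak without a partner) had such an overlap.

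The folds of both lists were compared over 1055 pairs in which each peak was the other's best partner and both lay away from the start. The median log2 ratio of KO over WT fold was 0.03 (-0.02 to 0.06), with quartiles of -0.35 and 0.46. Over all 23506 such pairs of the lists it was -0.03 (-0.04 to -0.02), over pairs of coding peaks 0.11 and over pairs of 3' UTR peaks -0.05. The KO fold was more than 2 times the WT fold in 91 pairs (8.63%), beside 7.86% of all pairs. The WT fold was more than 2 times the KO fold in 82 pairs (7.77%), beside 7.99% of all pairs. Both shares were near those of all pairs. Across the pairs the log2 folds had a Pearson r of 0.69 and a Spearman rank correlation of 0.70, given as a description over peaks that share their libraries. The edges coincided exactly in 26.1% of the pairs and lay within 100 bases of each other in 73.3%. In 844 of the pairs no other peak of either list took part in the locus, and there the median log2 ratio was 0.02 (-0.04 to 0.06).

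**Figure D4:**
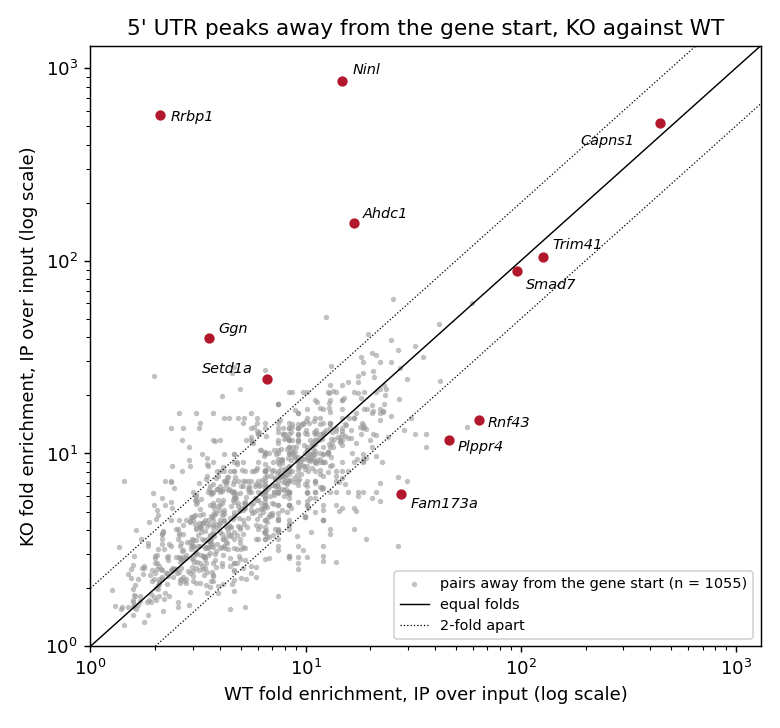
KO fold (vertical axis) against WT fold (horizontal axis) of the 1055 pairs of 5' UTR peaks away from the gene start, both on log scales, with equal folds on the solid line and folds 2 times apart on the dotted lines. Most points lie between the dotted lines, and the named genes in red lie at the top of the range or far from the line, with Ninl at 854 in KO and 14.8 in WT.

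The strongest of these peaks included housekeeping and signalling genes with like folds in both lists. Capns1, the small regulatory subunit of calpains, had a fold of 515 in KO and 443 in WT (chromosome 7, minus strand, 30193688 to 30195069 in KO). This peak overlapped a peak on the opposite strand. Trim41, a ubiquitin ligase, had 105 in KO and 127 in WT (chromosome 11, minus strand, 48815925 to 48817115 in KO), 238 bases from the gene's 5' end in both lists. Smad7, which inhibits signalling by TGF-beta receptors, had 88.0 in KO and 96.3 in WT (chromosome 18, plus strand, 75368517 to 75369325 in KO). In these 3 pairs the lists differed by less than 1 log2 unit. Another pair of this class in Smad7 (75367828 to 75367948 in KO) had 4.51 in KO and 12 in WT, a log2 ratio of -1.41.

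Ninl and Ahdc1 had far higher folds in the KO list. Ninl encodes a centrosomal protein related to ninein. Its peak (chromosome 2, minus strand, 151029685 to 151039279 in KO and 151030904 to 151039249 in WT) had a fold of 854 in KO and 14.8 in WT, a log2 ratio of 5.85, with log10 FDR values of -259 and -8.79. The KO peak reached further into the gene than the WT peak, while their edges nearer the gene start lay at 103 and 133 bases. Ahdc1, a protein with AT-hook DNA-binding motifs, had folds of 157 in KO and 16.7 in WT (chromosome 4, plus strand, 133011500 to 133012059 in KO), a log2 ratio of 3.23. Both peaks of Ahdc1 began at the same base, 240 bases into the gene. A second Ahdc1 pair, 28333 bases into the gene in KO, had folds of 7.22 in KO and 4.22 in WT.

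Other pairs with a higher KO fold came with and without a change in how the locus was divided. Ggn, gametogenetin, a protein of late germ cells, had 2 pairs of this class with 1 peak in each list (chromosome 7, plus strand). The first pair (29170540 to 29171534 in KO) had folds of 39.7 in KO and 3.55 in WT, a log2 ratio of 3.48, and the second (29172577 to 29172964 in KO) 8.12 in KO and 2.65 in WT, a log2 ratio of 1.62. Setd1a, a histone lysine methyltransferase, had 24.4 in KO and 6.60 in WT (chromosome 7, plus strand, 127777429 to 127777760 in KO), a log2 ratio of 1.89. Pheta2, an endosomal trafficking adaptor, had 28.0 in KO, and its best WT partner, annotated to the neighbouring gene Smdt1, had 4.63. Another WT peak at that locus, annotated to Pheta2, had 13.0, which gives a log2 ratio of 1.11. In Pdcl3, a phosducin-like protein, the best pair had 25.3 in KO and 1.98 in WT, while a second WT peak at the same locus had 23.1, for a log2 ratio of 0.13. Rrbp1, a ribosome-binding protein of the endoplasmic reticulum, had 569 in KO and 2.10 in WT by best overlap. At the same locus the WT list gave a peak of fold 978 with a coding class, for a log2 ratio of -0.78.

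At the other end, 3 pairs with 1 peak of each list at their locus had much higher folds in the WT list. Fam173a, a lysine methyltransferase of mitochondria whose GGACT is printed above, had 6.19 in KO and 27.8 in WT (chromosome 17, minus strand, 25791792 to 25792721 in KO), a log2 ratio of -2.17. Rnf43, a ubiquitin ligase that removes Wnt receptors from the cell surface, had 14.9 in KO and 63.9 in WT (chromosome 11, plus strand, 87663680 to 87664698 in KO), a log2 ratio of -2.10. A second pair in Rnf43, at 87663201 to 87663351 in KO, had 5.86 in KO and 4.63 in WT, a log2 ratio of 0.34. Plppr4, a phospholipid phosphatase-related protein, had 11.7 in KO and 46.3 in WT (chromosome 3, minus strand, 117360069 to 117360398 in KO), a log2 ratio of -1.98. In Fbxw7, the substrate receptor of a ubiquitin ligase, the best pair had 2.76 in KO and 12 in WT, but the highest folds at the locus were 17.6 and 12, a log2 ratio of 0.55. In Foxq1, a forkhead factor, the best pair had 5.06 in KO and 17.1 in WT, and the highest folds at the locus 12.3 and 17.1. These extremes rest on single list values without replicate error.

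Peaks found in the KO list without a WT partner at an FDR of 1e-05 or below were led by Adamts6, a secreted metalloprotease. Its peak (chromosome 13, plus strand, 104294618 to 104297375) had a fold of 16.7, and the nearest WT peak lay 65438 bases away in another gene. Ruvbl2, an ATPase of chromatin remodelling complexes, had 12.6 (chromosome 7, minus strand, 45434329 to 45434688), and Pfn4, a profilin of testis, 9.02 (chromosome 12, plus strand, 4769799 to 4769978). In both the nearest WT peak was in the 3' UTR of the same gene, 12448 and 5608 bases away. Setdb2, a histone lysine methyltransferase, had a fold of 4.54 and the lowest FDR of the 6 genes named here (chromosome 14, minus strand, 59431206 to 59437763, log10 FDR -18.2). Zc2hc1c had 6.92, with a WT peak 88 bases away, and Slit2, a guidance ligand of Robo receptors, 6.32, with a WT peak 479 bases away.

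The WT peaks without a KO partner at that FDR were led by Gnal, a G protein alpha subunit (chromosome 18, plus strand, 67088426 to 67089114), with a fold of 13.9. Nsd1, a histone lysine methyltransferase, had 13.0 (chromosome 13, plus strand, 55211885 to 55212562). Its peak began 29 bases beyond the end of a KO peak of the same class with a fold of 2.93. Baiap2, an adaptor that regulates the actin cytoskeleton, had 12 (chromosome 11, plus strand, 119942883 to 119943032), with the nearest KO peak 23423 bases away in another gene. Kdm2a, a histone demethylase, had 10.4, and a KO peak at the gene start, of fold 9.92, lay 29 bases away. Cradd, an adaptor with a death domain, had 5.55, and the nearest KO peak lay 64043 bases away in another gene. Jun, an early response transcription factor, had a WT peak of 5.89 without a partner, 147 bases from the KO member of that gene. Of these 6 genes, Nsd1, Kdm2a and Jun therefore had a KO peak within 200 bases.

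Some genes carried several of these peaks. Gpbp1, which binds GC-rich promoters, had 3 in KO and 4 in WT, all in overlapping spans on chromosome 13, the highest with folds of 8.15 in KO and 5.85 in WT. Its longest member spanned 82818 bases in KO and began 59597 bases upstream of the gene's 5' end, given as a distance of -59597. Lipe, hormone-sensitive lipase, had 4 in KO and 3 in WT, with KO folds of 2.17, 4.15, 2.84 and 8.12 and WT folds of 4.94, 4.94 and 8.33. Its peaks of 8.12 and 8.33 were partners, both with an FDR above 0.05. The WT partner of its 2.17 peak was a coding peak of fold 2.16. Anks1, an adaptor with ankyrin repeats, had 3 in each list, with folds of 3.29, 9.02 and 5.86 in KO and 3.02, 16.7 and 6.48 in WT. Auts2 also had 3 in each list, and its peak nearest the start (132449360 to 132541964 in KO) had a fold of 10.8 in KO and 36.1 in WT, a log2 ratio of -1.74.

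Genes of the m6A pathway were examined as a list. Alkbh5 itself had no peak of this class in either list. It had 0 peaks in the KO list and 3 in the WT list, among them a 5' UTR peak at the gene start with a fold of 7.22. Of the writers, erasers and readers, 7 of 27 genes with a peak in KO and 5 of 27 in WT had a 5' UTR peak away from the start. Over all genes with a peak the shares were 10.9% in KO and 9.82% in WT. Pcif1, the enzyme that writes m6Am next to the cap, had 5.99 in KO and 7.94 in WT (chromosome 2, plus strand, 164882841 to 164884201 in KO), 3537 and 3686 bases into the gene. Mettl4, a methyltransferase of m6Am in small nuclear RNA, had 5.19 in KO and 5.20 in WT. Ythdc2, an RNA helicase that binds m6A and is needed for meiosis, had 18 in KO and 7.41 in WT. Its log10 FDR values were -3.74 in KO and -2.28 in WT. Without a partner were Elavl1 (9.02), Igf2bp1 (1.67) and Igf2bp2 (4.51) in KO and Igf2bp3 (11.1) in WT, all RNA-binding proteins. None of these 4 had an FDR of 1e-05 or below, and Igf2bp1 and Igf2bp2 were counted only by peaks with an FDR above 0.05.

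Heat shock and translation genes were counted in the same way. Of the heat shock and stress list 2 of 27 genes in KO and 4 of 26 in WT had such a peak, beside 10.9% and 9.82% of all genes with a peak. Hsp90aa1 in WT was counted only by a peak with an FDR above 0.05. Hspa1l, a heat shock chaperone of spermatids, had a WT peak of 5.32, whose KO partner carried a 3' UTR class and a fold of 13.0. Slc35a4, known for a translated upstream reading frame in its 5' UTR, had 2.32 in KO and 2.99 in WT. Ppp1r15b, a phosphatase subunit of the integrated stress response, had 1.63 in KO, with a WT partner of 4.63 classed at the gene start. Of the translation initiation list 2 of 25 genes in each list had such a peak. Eif4g2, a scaffold of cap-independent initiation, had 1.82 in KO and 2.08 in WT. Eif4e, which binds the cap, had peaks without partners in both lists (3.07 in KO, 1.65 and 6.48 in WT). Its KO peak and its WT peak of 1.65 had an FDR above 0.05. Of ribosomal protein genes only Rpl18 had 1, with 4.17 in KO and 3.24 in WT, of 9 and 8 genes with a peak.

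Transcription factors and chromatin genes were read against the 10.9% in KO and 9.82% in WT of all genes with a peak. Among early response and stem cell factors 6 of 30 genes in KO and 5 of 29 in WT had such a peak. Fosb in KO and Fosl2 and Foxo1 in WT were counted only by peaks with an FDR above 0.05. The shared Jun peak (chromosome 4, minus strand, 95051209 to 95051567 in KO) had a fold of 7.49 in KO and 14.8 in WT, a log2 ratio of -0.98. Sox4 had 10 in KO, and its WT partner, with 10.6, was classed at the gene start. Foxo3 had 8.80 in KO and 3.47 in WT, over unlike spans of 27253 and 10565 bases. Its log10 FDR values were -6.15 in KO and -1.33 in WT. Of the chromatin list 9 of 33 genes in KO and 6 of 32 in WT had such a peak. Tet3, which oxidises methylated cytosine, had 20.5 in KO and 17.5 in WT in a span of 13701 bases in KO. Polycomb genes of this list were Ezh2 (8.25 in KO, 6.48 in WT), Eed (3.07 in KO, 3.10 in WT) and Jarid2 (2.33 in KO, 1.90 in WT). Suz12, another of them, had 18 in KO, with a WT partner of 9.72 classed at the gene start.

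Imprinted genes had such peaks in 6 of 21 cases in KO and 7 of 20 in WT. Over all genes with a peak the shares were 10.9% in KO and 9.82% in WT. Grb10 in KO and Gnas in WT were counted only by peaks with an FDR above 0.05. Inpp5f, an inositol phosphatase with an imprinted internal transcript, had folds of 26.2 in KO and 18.5 in WT (chromosome 7, plus strand, 128688746 to 128689075 in KO), 77418 bases into the gene. Peg10, a paternally expressed gene derived from a retrotransposon, had 4.43 in KO and 6.62 in WT over the same 449 bases. Ube3a, a ubiquitin ligase, had 10.8 in KO and 20.4 in WT. Igf2, a growth factor, had 2 in each list. Those with folds of 2.89 in KO and 3.39 in WT were partners, both with an FDR above 0.05. Those with 3.79 in KO and 3.44 in WT had no partner.

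Lists of germ cell genes were read against the 10.9% in KO and 9.82% in WT of all genes with a peak. Of the meiotic prophase list 3 of 33 genes in KO and 3 of 32 in WT had 1, the same 3 genes in both. Stra8, which drives entry into meiosis, had 1.69 in KO and 1.57 in WT (chromosome 6, plus strand, 34920939 to 34920998 in KO), the weakest of the 3. The gene listed as 4930447C04Rik (Six6os1, of the synaptonemal complex) had 11.4 in KO and 10.7 in WT, and Ythdc2 is given above. Of pachytene and spermatid regulators 0 of 21 genes in KO and 1 of 18 in WT had such a peak. This was Tssk6, a sperm kinase, with 8.80 in WT, whose KO partner of 11.7 was classed at the gene start. Of spermatogonia markers 2 of 15 in KO and 4 of 16 in WT had 1. Ccnd2, a cyclin, had 2.53 in KO and 1.54 in WT. Its WT peak, and the WT peak by which Foxo1 was counted, had an FDR above 0.05.

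Genes of somatic cells of the testis were present as well. Of Sertoli cell markers 5 of 15 in KO and 3 of 18 in WT had such a peak. Over all genes with a peak the shares were 10.9% in KO and 9.82% in WT. Gata4 had 3.18 in KO and 4.34 in WT (chromosome 14, minus strand), and Clu 2.15 in KO and 2.09 in WT over the same 1239 bases. Gata1 (3.61) and Inhba (7.22) had 1 in KO, neither at an FDR below 0.05. The Gata1 peak had a WT partner of 6.48 classed at the gene start. Of Leydig and peritubular markers only Cyp11a1, the cholesterol side-chain cleavage enzyme, had 1, of 12 genes in KO and 14 in WT with a peak. Its folds were 14.0 in KO and 15.4 in WT, and its edge lay before the listed gene start, at -742 and -593 bases. The libraries are from whole testes, and of the defining markers examined 4 of 6 germ cell genes in KO and 5 of 6 in WT had a peak of some class, with Ddx4 without a peak in both lists. Sertoli markers with a peak were 5 and 6 of 6 and Leydig markers 3 and 3 of 5, with Cyp17a1 without a peak in both lists.

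**Figure D5:**
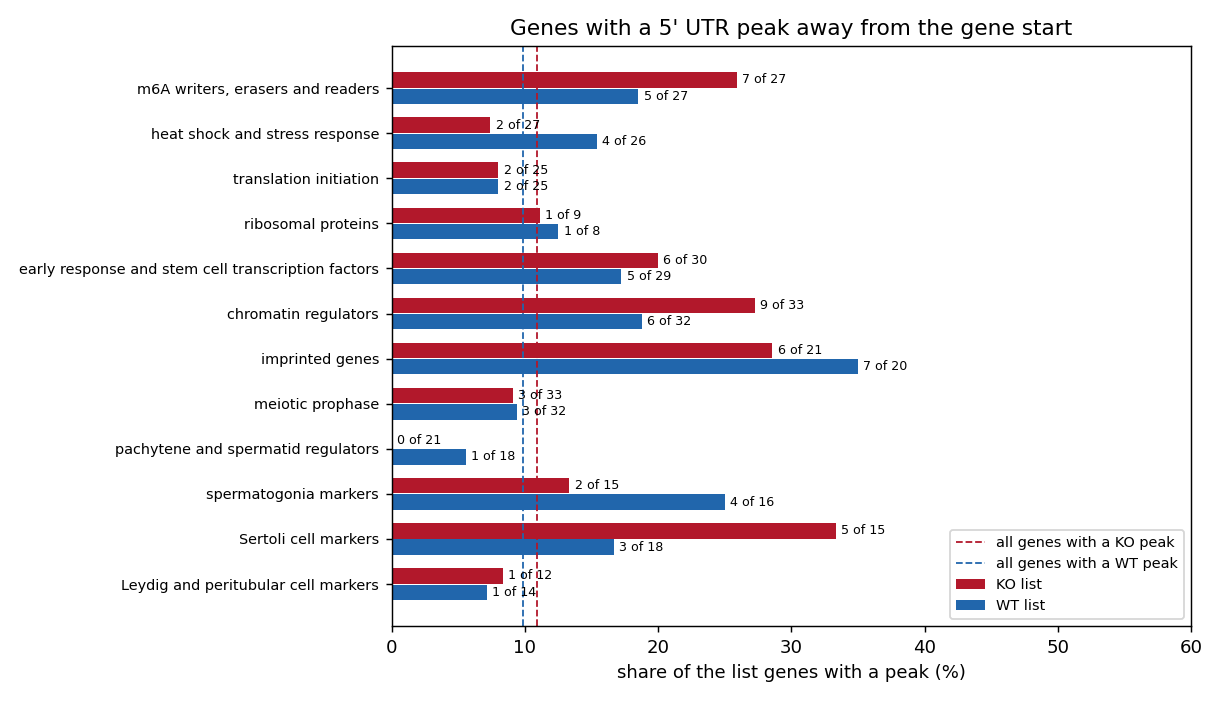
Share of list genes with a 5' UTR peak away from the gene start, among list genes with any peak (horizontal axis, %), for 12 gene lists in the KO list (red, upper bars) and the WT list (blue, lower bars), with counts beside the bars. Dashed lines give the same share over all genes with a peak, 10.9% in KO and 9.82% in WT, and the imprinted genes stand at 6 of 21 and 7 of 20.

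Genes with a 5' UTR peak away from the start usually carried other peaks. A 3' UTR peak was present in 73.7% of these genes in KO and 74.9% in WT, and a coding peak in 32.4% and 31.4%. For genes with a 5' UTR peak at the start the shares were 68.9% and 70.7% for the 3' UTR and 27.9% and 27.0% for coding peaks. A peak at the start accompanied the peak away from it in 17.7% of the genes in KO and 17.0% in WT. No other class of peak was listed for 13.8% in KO and 13.2% in WT. In Jun, the 3' UTR peak of the KO list had a fold of 218, against 7.49 for its 5' UTR peak away from the start. In Tet3 the order was the other way round, with 14.2 in the 3' UTR and 20.5 in the 5' UTR of the KO list.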

How the data were processed

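Methylated RNA was immunoprecipitated from fragmented polyadenylated RNA of P18 mouse testes and sequenced in pairs with strand-marked libraries, per the labels' protocols. The submitters' processing notes name GRCm38 and the tools HISAT2, StringTie, HOMER, fastp and FastQC, with neither version nor role. The peak caller, and whether replicates were pooled, are not given in the sources used here. Per the file headers, each deposited peak list holds a fold enrichment (a linear ratio of IP over input) and the log10 of p and FDR, handled as a score, as well as a position class and a gene span by the authors. The highest p-value listed was 0.0501. All folds and FDR values are the authors' own and were used only to describe, rank or filter.

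Positions count from 1. A 5' UTR peak was away from the start when the edge nearer the gene's 5' end was more than 100 bases from that end. Partners shared at least 1 base on the same strand. Pairs were mutual best partners by bases shared. The 5' ends of genes and of RefSeq transcripts (GRCm38.p6) were matched by symbol, with chromosome 18 left out. Shares carry Wilson, differences of shares Newcombe, and medians order-statistic 95% intervals. Python 3.11.15 with numpy 2.4.6, pandas 2.3.3, scipy 1.17.1 and matplotlib 3.10.9 was used, and the scripts were tested on simulated data. No p-value was computed.

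The class, the 12 gene lists (356 genes) and the naming rule were chosen with earlier results of these data known. Named, without clone-type names, were, at an FDR of 1e-05 or below, the 6 shared genes of highest KO fold, the 6 of highest fold without a partner in each list, the 5 highest and 5 lowest KO over WT ratios among pairs overlapping by 50%, and the 4 farthest shared peaks. Added were the 4 genes with most such peaks, up to 2 genes per list by fold, and Alkbh5. Other list members and the first 3 printed sequences were chosen after their values were seen. Some list members are not reported here.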

Additional observations from a re-analysis of the deposited data

How the results depend on the processing

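The share of 5' UTR peaks away from the start depended on the limit. It was 58.6% in KO and 55.4% in WT beyond 50 bases, 43.7% and 40.9% beyond 200, 31.1% and 29.7% beyond 500, and 24.8% and 23.1% beyond 1000. Measured from the midpoint of the span it was 85.8% and 85.6%, and from the nearest RefSeq start (added after seeing the data, and over the fewer peaks in matched genes) 52.9% and 50.0%. KO stood above WT in each of these. The share without a partner was 51.5% in KO and 50.5% in WT when 50% of both peaks had to overlap, 21.0% and 18.3% with partners within 200 bases, and 20.6% and 20.1% with both lists at an FDR of 0.05 or below. It was 4.34% and 3.46% at an FDR of 1e-05 or below, 22.9% and 19.7% for peaks beyond 500 bases, 23.0% and 17.7% beyond 1000, and 34.9% and 31.2% for spans up to 500 (added after seeing the data). The median fold was 6.81 in KO and 6.71 in WT at an FDR of 1e-05 or below, and 4.29 and 4.01 for spans up to 500. The median span at that FDR was 996 and 929 bases. The other alternatives for these shares (an FDR limit, clone-type names left out, limits of 50 and 200 bases for partners) stayed within the intervals. The median log2 ratio of folds was 0.03 (-0.02 to 0.06) and ranged from 0.00 to 0.06 over its 9 alternatives, of which those for loci with 1 peak per list and for the highest fold at a locus were added after seeing the data. The 0.06 was the ratio minus the median of all pairs, and its interval (0.01 to 0.09) left out 0, unlike that of the 0.03.

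No paired analysis was possible because the lists hold no values per library, and leaving out a replicate was not possible for the same reason. The planned share of peaks with GGAC over whole spans was not run, as no genome was used here. Depth per library is unknown. Fold ratios of single loci depend on how peaks were split, as given for Rrbp1, Pdcl3, Pheta2, Fbxw7 and Foxq1.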

Other observations

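Chromosome X held 3.79% (76 of 2007) of the 5' UTR peaks away from the start in KO and 4.36% (82 of 1882) in WT, against 3.03% and 2.99% of all peaks. The 5' UTR peaks at the start stood at 4.69% in KO and 4.49% in WT. Beyond the genes named by rule, 3 further loci with 1 peak per list are given as examples, chosen after their values were seen and not by rank. Mllt10, a chromatin-associated partner gene of leukaemic fusions, had folds of 50.8 in KO and 12.4 in WT (chromosome 2, 18064469 to 18065079 in KO), 9232 bases into the gene in KO. Marf1, a regulator of oocyte meiosis, had 6.32 in KO and 21.3 in WT, and Cxxc4, an inhibitor of Wnt signalling, 12.6 in KO and 36.1 in WT. The log2 ratios were 2.03, -1.75 and -1.52. None has a replicate error.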
